A study of Mus musculus with 4 samples.

Results

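The 7 ATPase genes described here encode subunits of the sodium and potassium pump and the calcium pumps of the lens, namely *Atp1b1*, *Atp1b2*, *Atp1b3*, *Atp2a2*, *Atp2b1*, *Atp2b2* and *Atp2b4*. The members are a list of gene names, drawn up with earlier results of these data known, and all 7 have a row among the 14924 genes of the deposited table. RNA came from whole lenses of 1-month-old mice, and the deletion of *S100A4* (S100A4 null, here S100A4-/-) was compared with wild type (WT) littermates, both on the C57BL/6J background. There were 2 libraries per genotype, each a pool of 6 to 12 lenses, and the sex of the animals in a pool was not given in the sources used here. No treatment was applied to either group.

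The sodium pump exports sodium and imports potassium at the expense of ATP, and each pump joins a catalytic alpha subunit to a glycosylated beta subunit that is needed for its folding and its delivery to the cell surface. Calcium is removed from the cytosol by pumps of different kinds, SERCA in the membrane of the endoplasmic reticulum and PMCA in the plasma membrane. The lens has no blood supply, its active transport is concentrated in the epithelium and the outer fibers, and the sodium gradient that the pump maintains drives the circulation of ions and water through the tissue. Calcium in fiber cells has to be held low, because high calcium activates proteases and clouds the lens. In the retina, *Atp1b2*, also known as adhesion molecule on glia, is found in photoreceptors and glia, and *Atp2b2* in neurons.

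The 4 libraries held 70253985 and 68038158 reads on genes in WT and 81602367 and 74108017 in S100A4-/- lenses. The values given below are normalized read counts, reads of a gene divided by the size factor of the library, so that 1 read is worth between 0.856 and 1.09. *S100a4*, the deleted gene, was at 14420 and 14385 in the WT libraries and at 14.6 and 18.2 in the S100A4-/- libraries, and every library matched its label. All 10 markers listed for lens fibers had reads in all libraries, *Cryaa* being the most abundant. None of the 10 reached an adjusted p of 0.05 or less between the genotypes (limma). Adjusted p-values throughout are Benjamini-Hochberg values over all 14780 genes tested, from limma unless another tool is named, and SE is the standard error of a log2 fold change.

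Of the 7 pump genes, 3 were higher in S100A4-/- lenses by at least 2-fold at an adjusted p of at most 0.05, *Atp1b2*, *Atp2b2* and *Atp2b4*, and none was lower (limma on log2(value + 1)). Among all genes tested 3.65% were higher by this rule and 0.0744% were lower. Both S100A4-/- libraries lay above both WT libraries for 5 of the 7 genes, which was so for 23.7% of all genes, and below them for 1 gene, which was so for 23.2%. The median log2 fold change of the 7 was 0.49 and that of all genes tested was −0.01. With *Atp2b1*, 4 of the 7 genes were higher at an adjusted p of at most 0.05 without a fold threshold, against 5.62% of all genes. Among the genes past the 2-fold threshold, *Atp1b2* was the least abundant beta subunit and *Atp2b2* and *Atp2b4* were below *Atp2b1*, the most abundant PMCA gene, as the panels of values by library show.

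**Figure D1:**
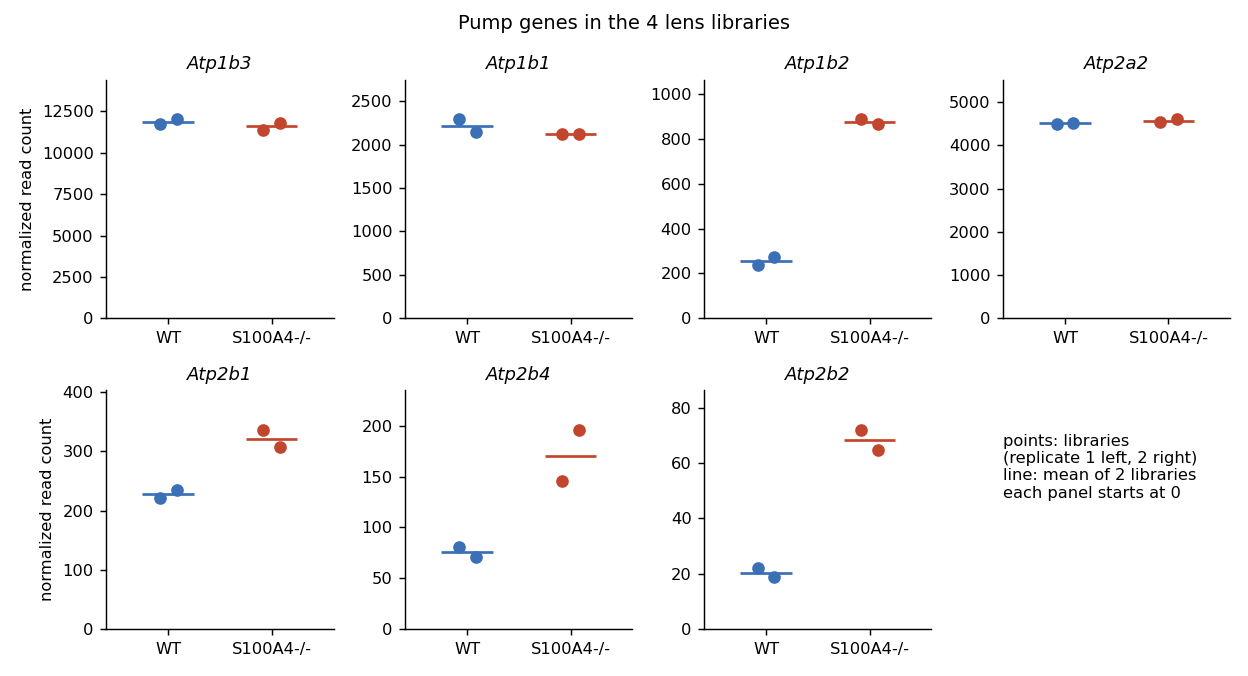
Normalized read count of each pump gene in each library (points), with the mean of the 2 libraries of a genotype (line), WT in blue and S100A4-/- in red, and each vertical axis starting at 0. *Atp1b2*, *Atp2b1*, *Atp2b4* and *Atp2b2* sit higher in both S100A4-/- libraries, while *Atp1b3*, *Atp1b1* and *Atp2a2* lie close together in the genotypes.

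The beta subunits of the sodium pump were split, with *Atp1b2* raised and *Atp1b1* and *Atp1b3* near their WT levels. *Atp1b2* (ENSMUSG00000041329, GRCm38 chromosome 11, 69599736 to 69605942, minus strand) encodes the beta2 subunit and was at 236 and 274 in the WT libraries and at 888 and 869 in the S100A4-/- libraries. The genotypes were far apart, since the lowest S100A4-/- library was more than 3 times the highest WT library. The WT mean was 255 ± 26.7 and the S100A4-/- mean 878 ± 13.8 (SD, n = 2 each), which gave a log2 fold change of 1.78 (SE 0.10, 95% interval 1.58 to 1.99, limma, adjusted p = 8.52e-17). The size of this p depends on the variance model. With a constant prior variance in limma, that is with no variance trend, the adjusted p of *Atp1b2* was 0.0344.

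*Atp1b3* (ENSMUSG00000032412, chromosome 9, 96332655 to 96364442, minus strand) encodes the beta3 subunit, the most abundant beta subunit of these lenses. It was at 11755 and 12016.5 in WT and at 11378 and 11808 in S100A4-/- lenses, and the genotypes overlapped. Its log2 fold change was −0.04, with a 95% interval of −0.12 to 0.05 (limma, adjusted p = 0.742). *Atp1b1* (ENSMUSG00000026576, chromosome 1, 164437109 to 164458355, minus strand) encodes beta1, the subunit most widely found in epithelia. It was at 2291 and 2149 in WT and at 2121 and 2122 in S100A4-/- lenses, so that both S100A4-/- libraries lay below both WT libraries by a small margin. The log2 fold change of *Atp1b1* was −0.06, with a 95% interval of −0.19 to 0.06 (limma, adjusted p = 0.636). The last 617 bases of *Atp1b1* overlap *Nme7* on the opposite strand, and the strand setting of the counting is not given in the sources used here, but *Nme7* was at 83.2 to 107 in the 4 libraries, far below *Atp1b1*.

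Among the plasma membrane calcium pumps, *Atp2b2* and *Atp2b4* passed the threshold and *Atp2b1* lay higher in both S100A4-/- libraries without passing it. *Atp2b2* (ENSMUSG00000030302, chromosome 6, 113743831 to 114042613, minus strand) encodes PMCA2, the fast pump of neurons and hair cells, and was the rarest of the 7 genes. It had 21 and 17 reads in the WT libraries and 84 and 64 in the S100A4-/- libraries, which made normalized values of 21.9 and 18.6 against 71.9 and 64.9. The lowest S100A4-/- value was thus about 3 times the highest WT value. Its log2 fold change was 1.71 (SE 0.33, 95% interval 1.04 to 2.38, limma, adjusted p = 3.22e-04), the widest interval among the 7 genes. Without a variance trend in limma the adjusted p of *Atp2b2* was 0.0431. With either S100A4-/- library left out the log2 fold change stayed at 1.64 and 1.78, but the adjusted p was 0.128 and 0.0797 (limma, the lone library being assumed to vary like the others). On the opposite strand *Gm15083* overlaps *Atp2b2* over 37825 bases and *Gm15082* over 2468 bases, neither of which was analysed here. Overlaps with pump genes are given for whole gene spans, introns included, and the exons of *Atp2b2* cover 12612 bases in all. Overlap of exons was not measured and the strand setting of the counting is not given. Whether these genes affected the count of *Atp2b2* is thus not known. *Gm44167* lies within *Atp2b2* on the same strand over 1878 bases and was not analysed here.

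*Atp2b4* (ENSMUSG00000026463, chromosome 1, 133699457 to 133801041, minus strand) encodes PMCA4, a pump of many tissues. It was at 80.4 and 71.2 in WT and at 146 and 196 in S100A4-/- lenses, and the genotypes did not overlap although the S100A4-/- libraries differed from each other more than the WT libraries did. The log2 fold change was 1.15 (SE 0.20, 95% interval 0.75 to 1.55, limma, adjusted p = 5.45e-05). The interval reaches below 2-fold, and without the second S100A4-/- library the log2 fold change was 0.94 (adjusted p = 0.127, limma). With a constant prior variance in limma, that is with no variance trend, the adjusted p of *Atp2b4* was 0.139. On the strand of *Atp2b4*, *Gm37368* overlaps it over 3212 bases and *Mir6903* over 88 bases, and neither was analysed here.

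*Atp2b1* (ENSMUSG00000019943, chromosome 10, 98914406 to 99026143, plus strand) encodes PMCA1, the housekeeping pump of most cells. It was at 221 and 235 in WT and at 336 and 307 in S100A4-/- lenses, with no overlap. Its log2 fold change was 0.49 (SE 0.13, 95% interval 0.24 to 0.75, limma, adjusted p = 0.00882), which is below the 2-fold threshold. The adjusted p of *Atp2b1* was 0.00774 with edgeR's quasi-likelihood test and 0.0972 with DESeq2. It was 0.156 in limma without a variance trend, 0.261 and 0.126 without the first and the second S100A4-/- library, and 0.0553 and 0.0105 without the first and the second WT library, while the log2 fold change stayed between 0.43 and 0.55.

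The pump of the endoplasmic reticulum did not follow them. *Atp2a2* (ENSMUSG00000029467, chromosome 5, 122453513 to 122502225, minus strand) encodes SERCA2, the SERCA of most non-muscle cells, and it was at 4502 and 4521 in WT and at 4531 and 4598 in S100A4-/- lenses. Both S100A4-/- values were the higher ones, but only just, and the log2 fold change was 0.02, with a 95% interval of −0.08 to 0.12 (limma, adjusted p = 0.909). A change of *Atp2a2* by more than 1.08-fold upward lies outside this interval. The same strand doubt holds for *Gm43361*, which overlaps *Atp2a2* on the opposite strand over 4690 bases, and *Gm43359* and *Gm43360* overlap it on its own strand over 2200 and 2887 bases, none of them analysed here.

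**Figure D2:**
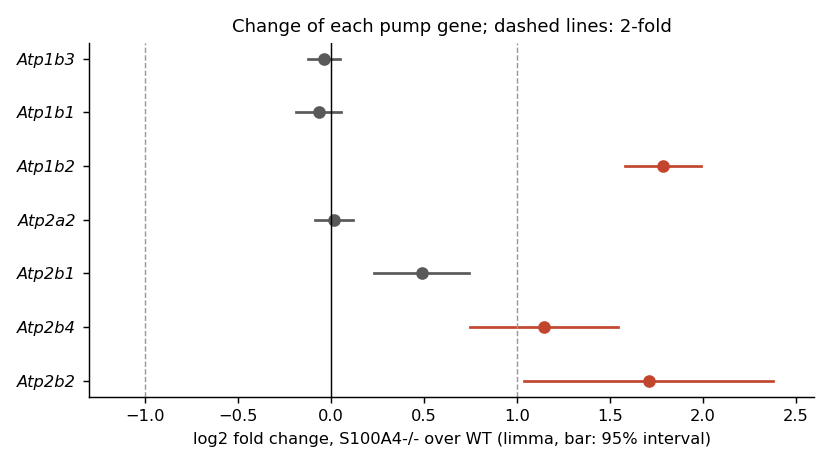
Log2 fold change of each pump gene between S100A4-/- and WT lenses (points) with its 95% interval from limma (bars), red where the gene passed the threshold and dashed lines at 2-fold. *Atp1b2*, *Atp2b4* and *Atp2b2* lie beyond 2-fold, *Atp2b1* lies between 0 and 2-fold, and the intervals of *Atp1b3*, *Atp1b1* and *Atp2a2* include 0.

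Stretches upstream of starts of the 3 PMCA genes are shown because 2 of these paralogs, *Atp2b2* and *Atp2b4*, passed the threshold and *Atp2b1* did not. They lie upstream of a RefSeq start site (GRCm38.p6), were cut to the bases outside annotated exons, read 5′ to 3′ on the strand of the gene, and have CpG dinucleotides in capitals. For *Atp2b2* both an outer start, 533 bases into the annotated gene, and an inner start, 107932 bases into it, are shown. The *Atp2b1* start lies 746 bases and the *Atp2b4* start 47294 bases into the gene, so the starts are not at like positions. All the stretches fall in introns of longer transcripts, and the data count whole genes and do not say which start was used. They are chr10:98914902-98915151 on the plus strand for *Atp2b1*, and on the minus strand chr6:114042081-114042192 and chr6:113934682-113934931 for *Atp2b2* and chr1:133753750-133753997 for *Atp2b4*.
Atp2b1: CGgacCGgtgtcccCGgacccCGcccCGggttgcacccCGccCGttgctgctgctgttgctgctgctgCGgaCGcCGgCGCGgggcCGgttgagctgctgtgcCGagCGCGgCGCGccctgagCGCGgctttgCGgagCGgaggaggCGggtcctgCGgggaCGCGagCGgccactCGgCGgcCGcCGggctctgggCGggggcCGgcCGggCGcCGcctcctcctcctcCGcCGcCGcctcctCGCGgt
Atp2b2 outer: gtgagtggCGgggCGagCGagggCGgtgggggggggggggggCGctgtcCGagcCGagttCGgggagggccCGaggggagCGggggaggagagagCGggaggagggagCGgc
Atp2b2 inner: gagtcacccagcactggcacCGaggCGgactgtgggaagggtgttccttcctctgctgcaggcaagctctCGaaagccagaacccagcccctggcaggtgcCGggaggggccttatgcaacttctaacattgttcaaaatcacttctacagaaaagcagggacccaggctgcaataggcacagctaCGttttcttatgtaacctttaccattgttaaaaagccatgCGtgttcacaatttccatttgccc
Atp2b4: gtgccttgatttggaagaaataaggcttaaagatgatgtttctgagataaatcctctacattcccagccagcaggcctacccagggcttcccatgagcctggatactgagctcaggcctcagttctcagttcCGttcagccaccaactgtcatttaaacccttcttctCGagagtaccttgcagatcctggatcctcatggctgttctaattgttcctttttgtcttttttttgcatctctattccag

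The *Atp2b1* stretch held 41 CpG and was 80.8% G and C, the outer *Atp2b2* stretch held 12 in 112 bases and was 80.4% G and C, the inner *Atp2b2* stretch held 6 and was 52.0% G and C, and the *Atp2b4* stretch held 2 and was 45.6% G and C. The median over all 32851 promoter windows of 250 bases in the reference table was 6 CpG. Over whole windows the other *Atp2b1* start had 43 CpG, the outer *Atp2b2* start 16 and the third *Atp2b2* start, 151074 bases into the gene, 6. The *Atp1b1* window held 24, and those of *Atp1b3* held 24 and 35. The 9 windows belong to 5 genes, of which *Atp2b2* and *Atp2b4* passed the threshold, and their starts lie at unlike positions, so windows of genes that passed and did not pass were not compared. *Atp1b2* and *Atp2a2* have no window here. TAATCC on either strand, the core motif of the OTX and CRX homeodomain factors, occurred in 0 of the 9 windows and in 6.25% of all windows. CACGTG, the palindromic E-box, occurred in 1 of the 9, upstream of the inner start of *Atp1b3*, and in 6.02% of all windows.

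Levels of different genes were compared per kilobase (kb) of exon, taking the union of the exons of each gene, since long genes collect more reads. In WT lenses the beta subunits stood at 4975 ± 77.4 (*Atp1b3*), 721 ± 32.5 (*Atp1b1*) and 62.4 ± 6.53 (*Atp1b2*) normalized reads per kb (SD, n = 2). The order was the same in each of the 4 libraries, and the ranges of neighbours did not overlap. In S100A4-/- lenses *Atp1b2* stood at 215 ± 3.37 normalized reads per kb (SD, n = 2), still below *Atp1b1* at 689 ± 0.24. The share of *Atp1b2* in the summed level of the beta subunits per kb was 1.01% and 1.16% in the WT libraries and 3.83% and 3.64% in the S100A4-/- libraries. The sum itself was 5722 and 5795 in WT and 5669 and 5844 in S100A4-/- lenses, with overlap, because *Atp1b3* made up between 84.0% and 86.8% of it in every library.

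The calcium pumps were ordered *Atp2a2*, *Atp2b1*, *Atp2b4* and *Atp2b2* per kb in every library. In WT lenses *Atp2a2* stood at 742 ± 2.15 normalized reads per kb (SD, n = 2), against 15.0 ± 0.65 for *Atp2b1*, 6.19 ± 0.53 for *Atp2b4* and 1.61 ± 0.19 for *Atp2b2*. In S100A4-/- lenses the PMCA genes stood at 21.1 ± 1.33, 13.9 ± 2.89 and 5.42 ± 0.40 normalized reads per kb in the same order (SD, n = 2), so that their order was unchanged. The sum of the 3 PMCA genes was 22.8 in both WT libraries and 39.6 and 41.3 in the S100A4-/- libraries. *Atp2a2* was thus 32.4 and 32.7 times the PMCA sum in WT and 18.8 and 18.3 times in S100A4-/- lenses. With 2 libraries against 2 an exact two-sided permutation test cannot go below p = 0.333, and it gave 0.333 for the PMCA sum and for the share of *Atp1b2*.

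**Figure D3:**
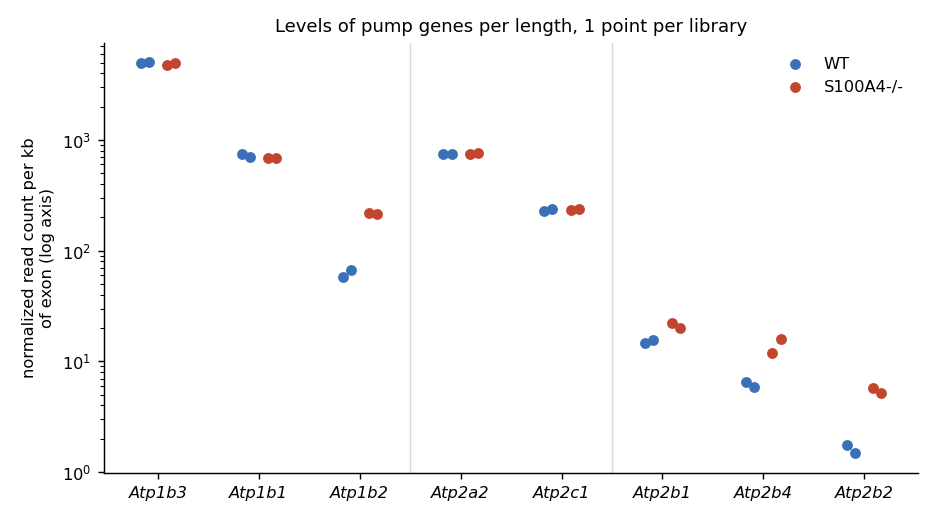
Normalized read count per kb of exon (log axis) of the pump genes and of *Atp2c1*, a calcium pump of the Golgi, 1 point per library, WT in blue and S100A4-/- in red. *Atp1b3* is the highest and *Atp2b2* the lowest in both genotypes, and *Atp1b2* and the PMCA genes *Atp2b1*, *Atp2b4* and *Atp2b2* are shifted upward in S100A4-/- lenses.

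The length taken for a gene matters most for *Atp2b1*, whose exons span 15.2 kb in all but 7.13 kb in the longest transcript. With the longest transcript in place of the union, the order within the beta subunits and within the PMCA genes was unchanged in both genotypes. The ratio of *Atp2a2* to the PMCA sum was smaller with the longest transcript, at 19.7 and 19.3 in WT and 11.8 and 12.1 in S100A4-/- lenses. The order of *Atp1b1* and *Atp2a2* was not settled, since in WT lenses they stood at 721 and 742 normalized reads per kb with the union, with overlapping libraries, and at 860 and 795 with the longest transcript.

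Paralogs were then compared within each library as a log2 ratio of 2 genes, taken on the normalized value + 1, so that the scaling of the library enters only through the added 1. The ratio of *Atp1b2* to *Atp1b1* was −3.27 and −2.97 in WT and −1.26 and −1.29 in S100A4-/- lenses, a difference of 1.85. That of *Atp1b2* to *Atp1b3* differed by 1.82, while that of *Atp1b1* to *Atp1b3* differed by −0.03 with overlapping libraries. *Atp1b2* thus moved against both of its paralogs, which kept their proportion to each other within the spread of the libraries. Among the PMCA genes, the ratio of *Atp2b2* to *Atp2b1* was −3.28 and −3.59 in WT and −2.21 and −2.23 in S100A4-/- lenses, a difference of 1.22. With 0.5 and 5 added in place of 1, this difference was 1.24 and 1.06. The ratio of *Atp2b4* to *Atp2b1* was −1.45 and −1.71 in WT and −1.20 and −0.65 in S100A4-/- lenses, a difference of 0.66 that was 0.38 without the second S100A4-/- library and 0.93 without the first. The ratio of *Atp2b2* to *Atp2b4* differed by 0.56, between 0.28 and 0.85 with a library left out. Of the 6 ratios 5 did not overlap between the genotypes, each with p = 0.333, the smallest an exact two-sided permutation test can give here, and 0.4 after Benjamini-Hochberg adjustment over the 6.

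**Figure D4:**
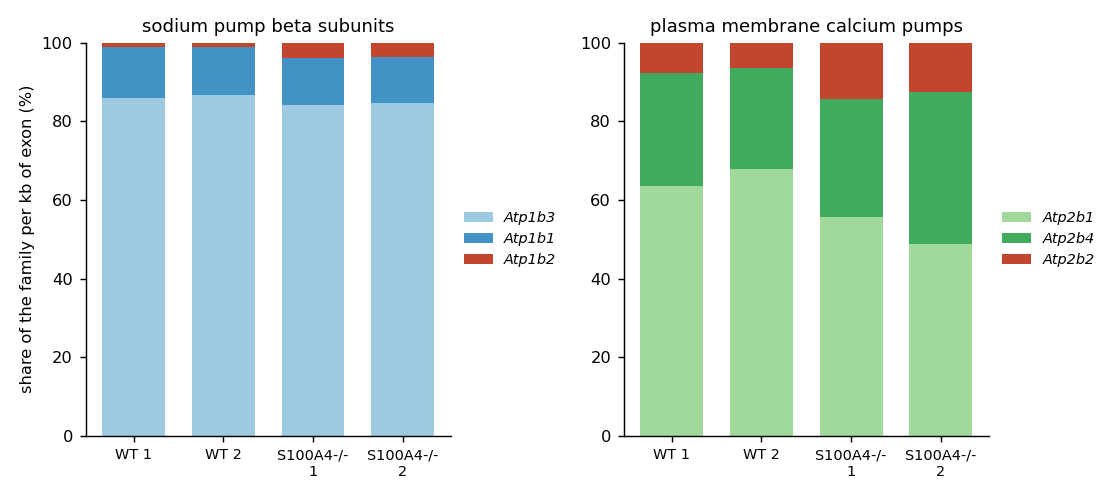
Share of each paralog in the summed normalized read count per kb of its family (%), 1 bar per library, for the sodium pump beta subunits and the plasma membrane calcium pumps. *Atp1b2* is 1.01% and 1.16% of its family in WT and 3.83% and 3.64% in S100A4-/- lenses, and *Atp2b2* is 7.61% and 6.49% of its family in WT and 14.4% and 12.5% in S100A4-/- lenses.

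The partners of the pumps were followed by lists. Of 7 FXYD genes, small membrane proteins that tune the sodium pump, 3 were analysed and none passed the threshold. *Fxyd1*, the phospholemman gene and the most abundant of them, was at 4216 and 4187 in WT and at 3806 and 3905 in S100A4-/- lenses (log2 fold change −0.12, limma, adjusted p = 0.164). *Fxyd6* was at 19.8 and 20.8 in WT and at 48.0 and 43.6 in S100A4-/- lenses, a log2 fold change of 1.13 that just missed the threshold (limma, adjusted p = 0.0506).

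Neither the 5 genes listed as partners of PMCA, basigin, neuroplastin and the calmodulins, nor *Atp2c1* passed the threshold. Basigin (*Bsg*), which joins PMCA as a subunit, was at 17035 and 16733 in WT and at 16615 and 16671 in S100A4-/- lenses, and the median log2 fold change of the 5 was −0.07. *Atp2c1* was at 2223 and 2283 in WT and at 2258 and 2301 in S100A4-/- lenses, which differed by 0.02 as a log2 fold change (limma, adjusted p = 0.926). Of 4 peptide regulators of SERCA, *Mrln* alone was analysed, with 7 and 2 reads in WT and 17 and 9 in S100A4-/- lenses (limma, adjusted p = 0.401).

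The list of exchangers that move calcium in return for sodium, at the plasma membrane or in organelles, held 9 genes. Of these 2 were higher past the threshold and none lower, against 3.65% and 0.0744% of all genes tested. *Slc24a1*, the exchanger of rod outer segments, rose from 122 and 118 in the WT libraries to 539 and 471 in the S100A4-/- libraries, a log2 fold change of 2.06 (SE 0.13, limma, adjusted p = 3.71e-15). *Slc24a5*, the exchanger of pigment cells, had 5 and 2 reads in WT and 24 and 21 in S100A4-/- lenses (log2 fold change 2.30, limma, adjusted p = 0.0277). The most abundant exchanger, *Slc24a4*, was at 5932 and 6024 in WT and at 6126 and 6087 in S100A4-/- lenses (log2 fold change 0.03, limma, adjusted p = 0.808). Neither exchanger that rose was the most abundant of its list.

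For each pump gene past the threshold, the genes with the nearest profile over the 4 libraries were sought among the 11269 named genes whose mean over the libraries reached 50, by the root mean square difference of centred log2 values. Nearest to *Atp1b2* were *Slc12a5*, a neuronal potassium and chloride cotransporter, at 0.026, *Flt1*, a receptor for vascular endothelial growth factor, at 0.030, and *Sag*, the rod arrestin, at 0.031. Nearest to *Atp2b2* were *Fam129a* at 0.035, *Fam107a* at 0.065 and *Plch2*, a phospholipase C, at 0.072. Nearest to *Atp2b4* were *Pltp*, a phospholipid transfer protein, at 0.030, *Sh3gl2*, an endophilin, at 0.062 and *Notch3* at 0.076. With 4 libraries in 2 groups such a profile holds little beyond the size of the difference and the spread within each genotype.

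Markers of other eye cells passed the threshold in part, in numbers that differed by list, where 3.65% of all genes tested were higher. All 10 rod markers passed the threshold, with a summed value of 2454 and 2649 in WT and 9911 and 9750 in S100A4-/- lenses, and the most abundant, *Gnat1*, was at 736 and 782 in WT and at 3339 and 3327 in S100A4-/- lenses. Of 6 Müller glia markers 4 passed, and *Dkk3*, which held 94.2% of the sum, had a log2 fold change of 0.03. Without *Dkk3* the other 5 summed to 2639 and 2876 in WT and to 6951 and 6768 in S100A4-/- lenses. Most of that sum was *Glul* alone, at 1779 and 1923 in WT and at 5387 and 5421 in S100A4-/- lenses. *Aqp4* had a log2 fold change of 0.09 with overlapping libraries. Of 6 markers of pigmented epithelium and melanocytes 5 passed, with a sum of 210 and 302 in WT and 1241 and 1299 in S100A4-/- lenses, *Dct* being the most abundant. Photoreceptor, glial and pigment cell genes thus had reads in WT lenses as well, and no marker of any of these lists that had a row was at 0 in any library.

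Of 5 ciliary body markers analysed 4 passed, and the sum was 5304 and 5411 in WT and 9321 and 8837 in S100A4-/- lenses, most of it *Ptgds*. Without *Ptgds* the other 4 summed to 602 and 763 in WT and to 3332 and 2885 in S100A4-/- lenses. Of 6 cone markers 4 passed (sum 92.9 and 111 in WT, 230 and 264 in S100A4-/- lenses). The most abundant, *Opn1mw*, did not, and its libraries overlapped (log2 fold change 0.45, limma, adjusted p = 0.558). Of 6 bipolar cell markers 2 passed (sum 2255 and 2205 in WT, 2890 and 2694 in S100A4-/- lenses). The most abundant, *Prkca*, had a log2 fold change of 0.04. *Cabp5* lay lower in both S100A4-/- libraries (log2 fold change −0.29, limma, adjusted p = 0.276). Most of the rise in the sum was *Trpm1*, at 593 and 562 in WT and at 1186 and 1005 in S100A4-/- lenses. Its log2 fold change of 0.92 was short of 2-fold. Of 5 amacrine and ganglion cell markers analysed 4 passed (sum 447 and 506 in WT, 1191 and 1200 in S100A4-/- lenses), with *Slc6a9* the most abundant. Of 4 macrophage and microglia markers analysed 3 passed (sum 79.4 and 65.7 in WT, 228 and 191 in S100A4-/- lenses), with *Csf1r* the most abundant. Of 5 endothelial markers 1 passed (sum 97.1 and 137 in WT, 182 and 198 in S100A4-/- lenses). The most abundant, *Tek*, lay lower in both S100A4-/- libraries (log2 fold change −0.24, limma, adjusted p = 0.738). Of 3 red blood cell markers analysed 1 passed (sum 129 and 77.7 in WT, 223 and 217 in S100A4-/- lenses). Of the skeletal muscle markers *Ckm* alone was analysed, and it was at 256 and 212 in WT and at 173 and 164 in S100A4-/- lenses (log2 fold change −0.47, limma, adjusted p = 0.0474), short of 2-fold.

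Lens markers did not move in this way. None of the 10 fiber markers and none of the 6 epithelial markers passed, and the epithelial sum was 25285 and 25578 in WT and 25548 and 25434 in S100A4-/- lenses. Of the fiber markers 5 lay lower and 1 higher in both S100A4-/- libraries, against 23.2% and 23.7% of all genes tested. The median log2 fold change of the 10 was −0.06. The part of other cells in the rise of *Atp1b2*, *Atp2b2* and *Atp2b4* was not tested. In RNA of whole lenses a difference in the number of cells of a type and a difference in RNA per cell cannot be told apart.

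**Figure D5:**
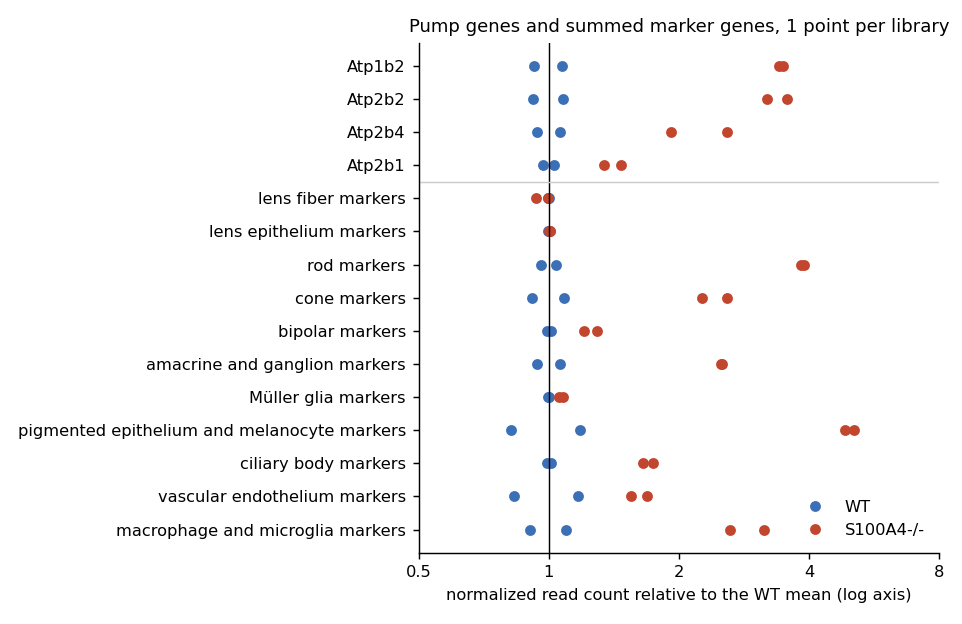
Normalized read counts of 4 pump genes and summed normalized read counts of marker lists in each library, each divided by the mean of the 2 WT libraries (log axis), WT in blue and S100A4-/- in red. *Atp1b2*, *Atp2b2* and *Atp2b4* and most of the marker lists of other cells lie to the right of 1 in S100A4-/- lenses, while lens fiber and lens epithelium markers stay near 1.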

How the data were processed

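RNA of lenses was sequenced as stranded, single-end mRNA libraries. Per the study's methods, reads were trimmed (Trim Galore) and mapped by STAR to GRCm38 (mm10 in the submitters' processing notes), HTSeq counted reads of a single locus for each gene, genes under 10 reads in every library were dropped, and DESeq2 supplied size factors. The deposited values are a signal, the counts of a gene divided by the size factor of its library. Dividing them by the worth of 1 read gave whole numbers for 100.0% of values in each library (within 0.01), so reads were recovered. All value columns were mapped to a sample. Reads of replicates departed from a split by total reads (chi-square per gene, median 2.02 in S100A4-/- and 1.10 in WT, where noise gives less than 1). The split did not use the size factors, which were 1.17 and 0.987 in the S100A4-/- libraries. These medians thus hold a difference in scaling as well as replicate spread, and the 2 were not separated. The labels call the libraries biological repeats.

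Groups came from the labels. Values were compared with limma (trend) on log2(value + 1) for the 14780 genes that reached a value of 10 in any library, and 144 genes were left out. A fold change on this scale understates changes of low genes. The threshold was 2-fold and a Benjamini-Hochberg adjusted p of at most 0.05. Alternatives were other pseudocounts, filters, scalings and variance models, the replicate block, each library left out, and edgeR and DESeq2 on recovered reads. On simulated counts with 200 changed genes, limma called 204 of 14414 genes tested, 199 of them changed. The changed genes were drawn among those with a mean value of at least 50, which leaves out genes as low as *Atp2b2*. All were given larger changes than that of *Atp2b4*. The simulation therefore does not cover genes like these. Symbols, coordinates and lengths came from GENCODE M21 (GRCm38) for 14782 genes, and promoter windows from RefSeq. Pump genes, lists and motifs were chosen with earlier results of these data known. The named genes were the pump genes, listed partners past the threshold or most abundant in their list, the 3 nearest profiles of each pump gene past the threshold, and the most abundant marker of a list. *Fxyd6*, *Mrln*, *Nme7*, *Stim1*, *Itpr2*, *Ryr2*, *Ryr3*, *Cabp5*, *Trpm1*, *Glul* and *Aqp4* were named after their values were seen. The genes of the catalytic alpha subunits are not reported here. Tools were Python 3.11.15 with scipy 1.17.1, matplotlib 3.10.9, numpy 2.4.6 and pandas 2.3.3, and R 4.3.3 with edgeR 4.0.16, limma 3.58.1 and DESeq2 1.42.0.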

Additional observations from a re-analysis of the deposited data

How the results depend on the processing

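Of the 3 pump genes higher in S100A4-/- lenses, between 1 and 3 passed with a library left out, and *Atp1b2* alone passed without the second S100A4-/- library. *Atp2b2* passed under all alternatives in which it was tested except without either S100A4-/- library (log2 fold change 1.60 to 1.82 over the libraries left out), and it was not tested with a mean value of at least 50. *Atp2b4* (0.94 to 1.36 with a library left out) also missed the threshold, at 1.15, without a variance trend. The log2 fold change of *Atp1b3* turned to 0.0085 under quantile normalization, and the difference in the ratio of *Atp1b1* to *Atp1b3* to 0.033 without the first WT library (−0.090 to 0.033 with a library left out). All 4 paralog orders were kept under every alternative run. Over all genes, 539 were higher and 11 lower. The counts were 281 and 6 with a mean value of at least 50, 174 and 7 without a variance trend, and 831 and 197 without a fold threshold. With a library left out they were 168 to 546 higher and 4 to 13 lower. Quantile normalization gave 23 lower and DESeq2 6 lower. With the replicate number as a block 576 genes were higher and 15 lower, and the same 3 pump genes passed with log2 fold changes of 1.78, 1.71 and 1.15. The deviations of same-numbered libraries correlated at r = 0.01 across genes, so the numbers gave no pairing. Depth limits *Atp2b2* most, with 38 WT reads in all. Each genotype had 2 pools only. The standard errors, intervals and p-values of limma therefore rest in large part on variance shared across genes (36.3 degrees of freedom in total). They do not measure the spread of the 2 pools of a gene alone.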

Other observations

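Channels that let calcium into the cytosol were also followed, as the counterpart of the pumps. Of 6 release channels of the endoplasmic reticulum none passed the threshold. *Itpr1*, an inositol trisphosphate receptor and the most abundant of them, was at 2644 and 2903 in WT and at 2763 and 2538 in S100A4-/- lenses, with overlap. The ryanodine receptor genes *Ryr2* (174 and 161 in WT, 224 and 214 in S100A4-/- lenses, limma, adjusted p = 0.124) and *Ryr3* (8 and 3 reads in WT, 16 and 26 in S100A4-/- lenses, limma, adjusted p = 0.129) lay higher in both S100A4-/- libraries but did not pass, and *Itpr2* (332 and 326 in WT, 309 and 317 in S100A4-/- lenses) lay lower in both. Of all genes tested 23.7% lay higher and 23.2% lower in this way.

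Of 5 genes of store-operated calcium entry, none passed the 2-fold threshold. *Stim1*, the calcium sensor of the endoplasmic reticulum, was at 315 and 270 in WT and at 367 and 403 in S100A4-/- lenses, a log2 fold change of 0.40 (SE 0.12, limma, adjusted p = 0.0285). *Stim2* was the most abundant of the 5, and the median log2 fold change of the 5 was 0.06.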
